A study of Mus musculus with 34 samples.

Results

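The clustered protocadherins are 57 protein-coding genes on mouse chromosome 18, out of 21887 protein-coding genes in the gene table used. They were chosen by position and by symbol: Pcdha, Pcdhb, Pcdhga, Pcdhgb or Pcdhgc followed by a number or by the letter c. There were 14 alpha, 22 beta and 21 gamma members. The alpha group held 12 variable genes and 2 C-type genes, Pcdhac1 and Pcdhac2. The gamma group held 12 A genes, 6 B genes and 3 C-type genes, Pcdhgc3, Pcdhgc4 and Pcdhgc5. Pcdhgb8 is a transcribed pseudogene in the table and was not counted, nor were the read-through models Gm37013, Gm38666 and Gm38667, which run from the alpha to the gamma genes. In the build GRCm38 (mm10) the members spanned 912 kb, from 36930285 to 37841873. The alpha genes took 259 kb, the beta genes 256 kb and the gamma genes 180 kb, with a gap of 76.1 kb between alpha and beta and one of 140 kb between beta and gamma.

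Clustered protocadherins are adhesion proteins of the cell surface, best known in neurons, where each cell uses its own small choice of isoforms and distinguishes itself from its neighbours by them. Each variable gene has its own promoter and 1 large first exon that encodes the whole outer part of the protein. In the alpha and gamma groups this exon is spliced to constant exons that all genes of the group share, while a beta gene is complete in itself. In neurons most promoters are silent and DNA-methylated, and those in use bind the looping factor CTCF together with cohesin. The C-type genes are used more evenly between cells. Most promoters share a conserved sequence element, which Pcdhac2, Pcdhb1, Pcdhgc4 and Pcdhgc5 lack.

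The study used paired-end ATAC-seq, an assay whose transposase, Tn5, inserts into accessible DNA, to map the chromatin of germ cells from adult male mice. Its 34 libraries fall into 12 groups, which are 4 stages in 3 backgrounds. The stages were cells in meiosis (MS), then round (RS) and elongating (ES) spermatids, and last mature sperm (Sp). The authors deposited 2 lists per group, nucleosome calls, which are intervals of 150 bp, and subnucleosome peaks, which mark open DNA without a nucleosome, so that 24 lists were analysed and none has a replicate. The SV129 mice carried intact Gcn5 and gave 4 libraries at MS, RS and ES, which were 2 technical repeats of 2 biological replicates, and 6 at Sp. The group called WT here was C57BL6 with both Gcn5 alleles intact. The group called cKO was C57BL6 with both floxed Gcn5 alleles removed by Cre from the gene Stra8. Each of these gave 2 libraries per stage. The ages of 8 to 12 weeks and the pooling of 11 mice per collection are stated for SV129 in the labels' protocols. Gcn5 is a histone acetyltransferase, and the series asks how it bears on the nucleosome changes of spermiogenesis, when most histones are exchanged for protamines.

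Several properties of the lists limit every comparison. There is no replicate error and hence no test between stages or backgrounds, and the difference between the intact lists, SV129 and WT, is given beside that between cKO and WT. Where 3 values are given together they are for SV129, WT and cKO in that order. The build is of C57BL6 mice, and strain, library number and depth cannot be told apart in the SV129 lists. Read depth is unknown and list length can follow it, so the counts of members called are set beside the share of other genes, or of all genes where both ends are counted, called by the same rule. Intervals on shares are exact binomial (Clopper-Pearson) and those on densities exact Poisson, at 95%, and they cover counting error only. Neighbouring nucleosome calls overlap, so calls are not independent. Members are similar copies of each other, and the treatment of reads that map to several copies is not given in these sources, which bears on calls inside the large exons. Among cell type markers, 7 of 8 meiotic genes had a subnucleosome peak at an end in each of the 3 MS lists. Of all genes 45%, 47.5% and 33.1% had one there. None of the 8 Sertoli and Leydig or 6 blood genes had one in any list. At RS the meiotic genes gave 6, 7 and 2 of 8, and spermatid genes 8, 7 and 0 of 8, against 40.1%, 46.5% and 11.2% of all genes. The cKO list of RS thus had few peaks at these markers and at genes in general. The intervals for its 2 and 0 of 8 (3.19 to 65.1% and 0 to 36.9%) include its share of all genes. Of 5 neural genes 1, 2 and 0 had such a peak at MS and 2, 3 and 0 at RS. Of 6 epididymal genes 1, 1 and 0 had one at RS. Nucleosome calls at an end were in 0, 4 and 1 of the 8 Sertoli and Leydig genes at MS, against 49.7%, 57.3% and 51.1% of all genes. They were in 1, 0 and 2 at RS (48.5%, 45.5% and 30.3%) and in 6, 5 and 4 at ES (39.2%, 35.7% and 37.5%). The lists hold no reads, so the deletion of Gcn5 was not checked here.

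Few members had an open site listed at their promoter, at any stage. A subnucleosome peak within 500 bp of the start was listed at MS for 3 of 57 members in SV129 (5.26%, 1.1 to 14.6), 5 in WT (8.77%, 2.91 to 19.3) and 0 in cKO (0%, up to 6.27). The share among 17492 other genes with a known strand was 44.4%, 47.1% and 33.2% in the same lists. At RS the members called were 1 in SV129 (1.75%, 0.0444 to 9.39), 6 in WT (10.5%, 3.96 to 21.5) and 0 in cKO (0%, up to 6.27), against 40.1%, 46.1% and 11.7% of other genes. In each of these 6 lists the upper bound for the members thus lay below the share of other genes. In the ES lists no member was called, as with nearly all genes (0.0515%, 0.04% and 0.0743%). With peaks under the median score left out, the WT counts became 1 at MS and 2 at RS, against 37.3% and 38.3% of other genes. In sperm no member was called either, while 21.5%, 8.24% and 3.45% of other genes were in SV129, WT and cKO.

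**Figure D1:**
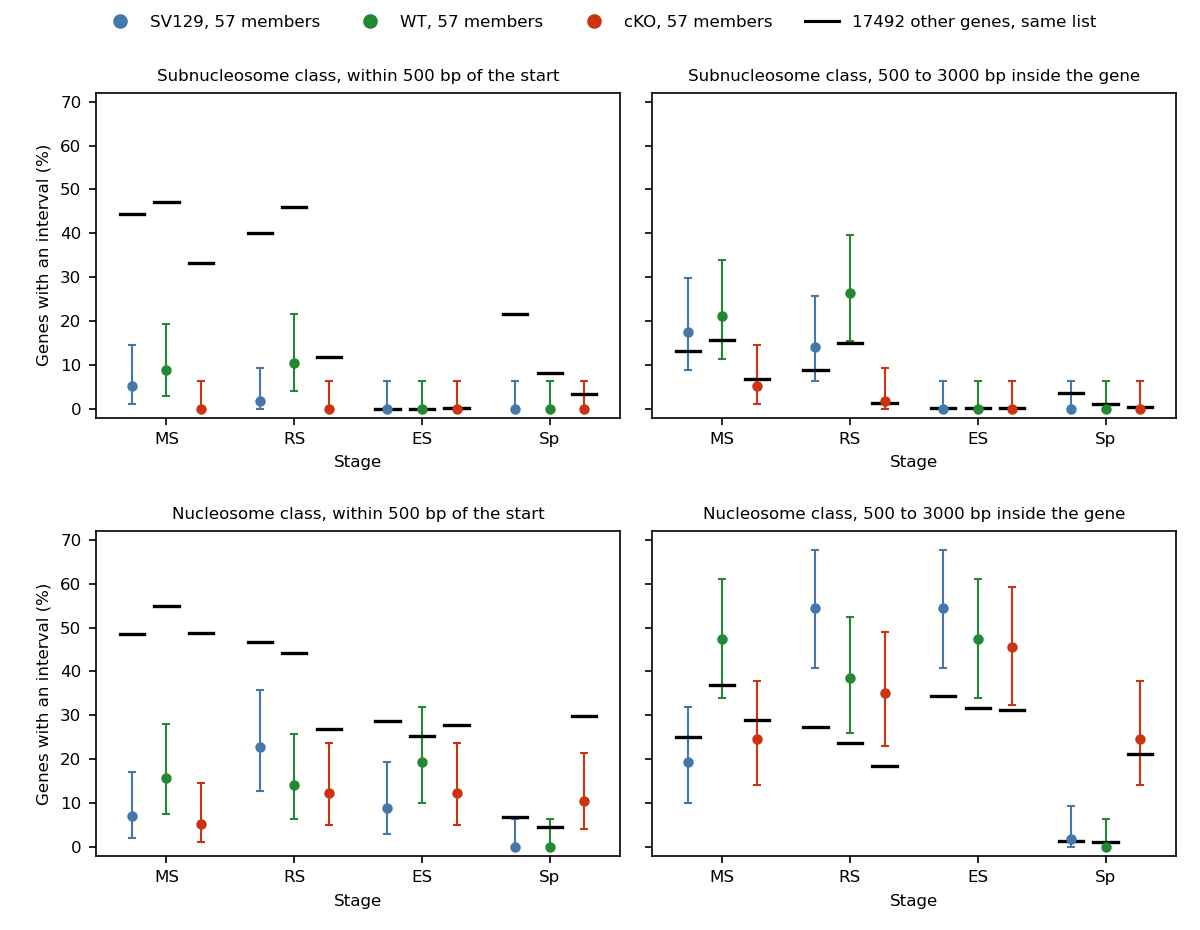
Share of genes with an interval (y axis, %) by stage (x axis) for each background, within 500 bp of the start (left) and from 500 to 3000 bp inside the gene (right), for subnucleosome peaks (top) and nucleosome calls (bottom). Points are the 57 members with exact 95% intervals and bars are 17492 other genes in the same list. At the starts the members lie below the other genes in every MS and RS list, while for nucleosome calls inside the genes they lie above them at RS and ES.

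Of the 57 members, 49 had no subnucleosome peak at the start in any of 12 lists. The 8 that had one (14%, 6.26 to 25.8, against 53.7% of other genes over the same lists) were 2 of 14 alpha members and 6 of 21 gamma members, and 0 of 22 beta members. Pcdhac1, the first C-type gene, was the most constant: its peak at 37089849 to 37090155, centred 134 bp before the start, covered 240 bp in SV129 and 270 bp in WT at MS, and 178 bp and 201 bp at RS. It was the lone start site listed in all 4 of these intact lists, and it was in neither cKO list. Pcdhga8, an A-type gamma gene, had 97 bp in SV129 and 238 bp in WT at MS and 105 bp in WT at RS. Pcdhgb6, a B-type gamma gene, had 151 bp in both intact MS lists, centred 200 bp inside the start, and a separate peak of 90 bp in WT at RS. Neither gene had one in the SV129 list at RS or in a cKO list.

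The other 5 members were each called at the start in 1 list of WT. Pcdhgc3, a C-type gamma gene, had 174 bp at MS and Pcdhgb7 97 bp. At RS Pcdhga3 had 144 bp, Pcdhac2 119 bp and Pcdhgb5 89 bp. Of the 4 genes without the common promoter element, Pcdhgc4, Pcdhgc5 and Pcdhb1 thus had no peak at the start in any list and Pcdhac2 had one in a single list. The 8 genes were 3 C-type and 5 variable gamma members.

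Counting both annotated ends changed 1 list greatly, since alpha members and gamma members each share their last exons. At MS 22 of 57 members had a peak at either end in SV129, 5 in WT and 0 in cKO, against 45%, 47.5% and 33.1% of all genes. All 21 gamma members were called in SV129 through 1 peak of 107 bp at 37842130 to 37842236, just past their common end. At RS the counts were 1, 6 and 0, as at the start, against 40.1%, 46.5% and 11.2%. None was called at ES (0.0868%, 0.0457% and 0.0959% of all genes) or in sperm (21.2%, 8% and 3.34%).

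The genes around the cluster were called more often in the same lists. Among 30 genes within 500 kb of the cluster, 20, 21 and 16 had a subnucleosome peak at an end at MS in SV129, WT and cKO, and 17, 19 and 5 at RS. In sperm 11, 6 and 2 of them had one. Taf7, an ordinary gene for a general transcription factor subunit, lies between the beta and gamma groups (37640491 to 37644204) and is described below with the sites. Among 12 protocadherins outside the cluster, 3, 4 and 3 were called at MS and 3, 3 and 0 at RS. Pcdh10, Pcdh17 and Pcdh8, adhesion genes with a single locus each, made up the 3 in both intact RS lists, with 250, 382 and 81 bp in SV129. Classical cadherins were also called seldom, with 2, 3 and 2 of 20 at MS (10%, 15% and 10%) and 1, 3 and 0 at RS (5%, 15% and 0%). Hox genes, developmental regulators that also lie in clusters, had 4, 10 and 4 of 39 called at MS, and olfactory receptors 5, 6 and 1 of 1110. Few open sites at gene ends were thus not particular to the cluster.

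Nucleosome calls at member starts were more common than subnucleosome peaks but again below other genes, with the upper bound under the background in every MS and RS list. At MS 4 of 57 members were called in SV129 (7.02%, 1.95 to 17), 9 in WT (15.8%, 7.48 to 27.9) and 3 in cKO (5.26%, 1.1 to 14.6), where 48.6%, 54.9% and 48.7% of other genes were. At RS 13 were called in SV129 (22.8%, 12.7 to 35.8), 8 in WT (14%, 6.26 to 25.8) and 7 in cKO (12.3%, 5.08 to 23.7), against 46.6%, 44.2% and 26.9%. At ES the members had 5, 11 and 7 calls against 28.7%, 25.3% and 27.8%, and the interval for the 11 in WT (19.3%, 10 to 31.9) includes the share of other genes. In sperm no member was called in SV129 or WT (6.8% and 4.62% of other genes), and 6 were in cKO (10.5%, 3.96 to 21.5, against 29.8%).

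With both ends counted, the nucleosome calls at MS took in 4, 9 and 3 members (49.7%, 57.3% and 51.1% of all genes) and at RS 14, 9 and 7 (48.5%, 45.5% and 30.3%). At ES the counts were 6, 30 and 10 (39.2%, 35.7% and 37.5%), and in sperm 0, 0 and 37 (6.79%, 4.62% and 35.2%). The 30 in WT at ES include all 21 gamma members, reached through calls at their common end that cover 79 bp. The 37 in cKO sperm include all 14 alpha and all 21 gamma members, and here the common ends account for most of the count.

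Over all stages 36 of 57 members had a nucleosome call at the start in at least 1 list (63.2%, 49.3 to 75.6), against 79.2% of other genes. They were 10 of 14 alpha, 6 of 22 beta and 20 of 21 gamma members. Pcdhac1 led with 1110 bp summed over 6 of 12 lists, and Pcdhgb6 had 825 bp in 5. Pcdhga8 had 735 bp, Pcdhac2 715 bp and Pcdhgb7 648 bp, in 4 lists each. Pcdha4 and Pcdhgb4 each had 640 bp in 3 lists, Pcdhgc3 623 bp in 4, Pcdhgc5 433 bp in 3 and Pcdhga10 360 bp in 2. Pcdhb1, the first beta gene, was called in WT at MS with 150 bp and in no other list, and Pcdhgc4 in cKO sperm with 150 bp.

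Pcdhac1 shows how the starts varied. At MS its nucleosome calls covered 0 bp in SV129, 250 bp in WT and 150 bp in cKO. At RS they covered 350 bp in SV129, 150 bp in WT and 33 bp in cKO. At ES they covered 177 bp in WT alone. So both cKO lists of MS and RS held a nucleosome call at this start, while neither had the subnucleosome peak that both intact backgrounds listed there. Pcdhac2, the second C-type alpha gene, had 150 bp in SV129 and 210 bp in WT at MS, none in cKO, and at RS 205 bp in WT and 150 bp in cKO.

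**Figure D2:**
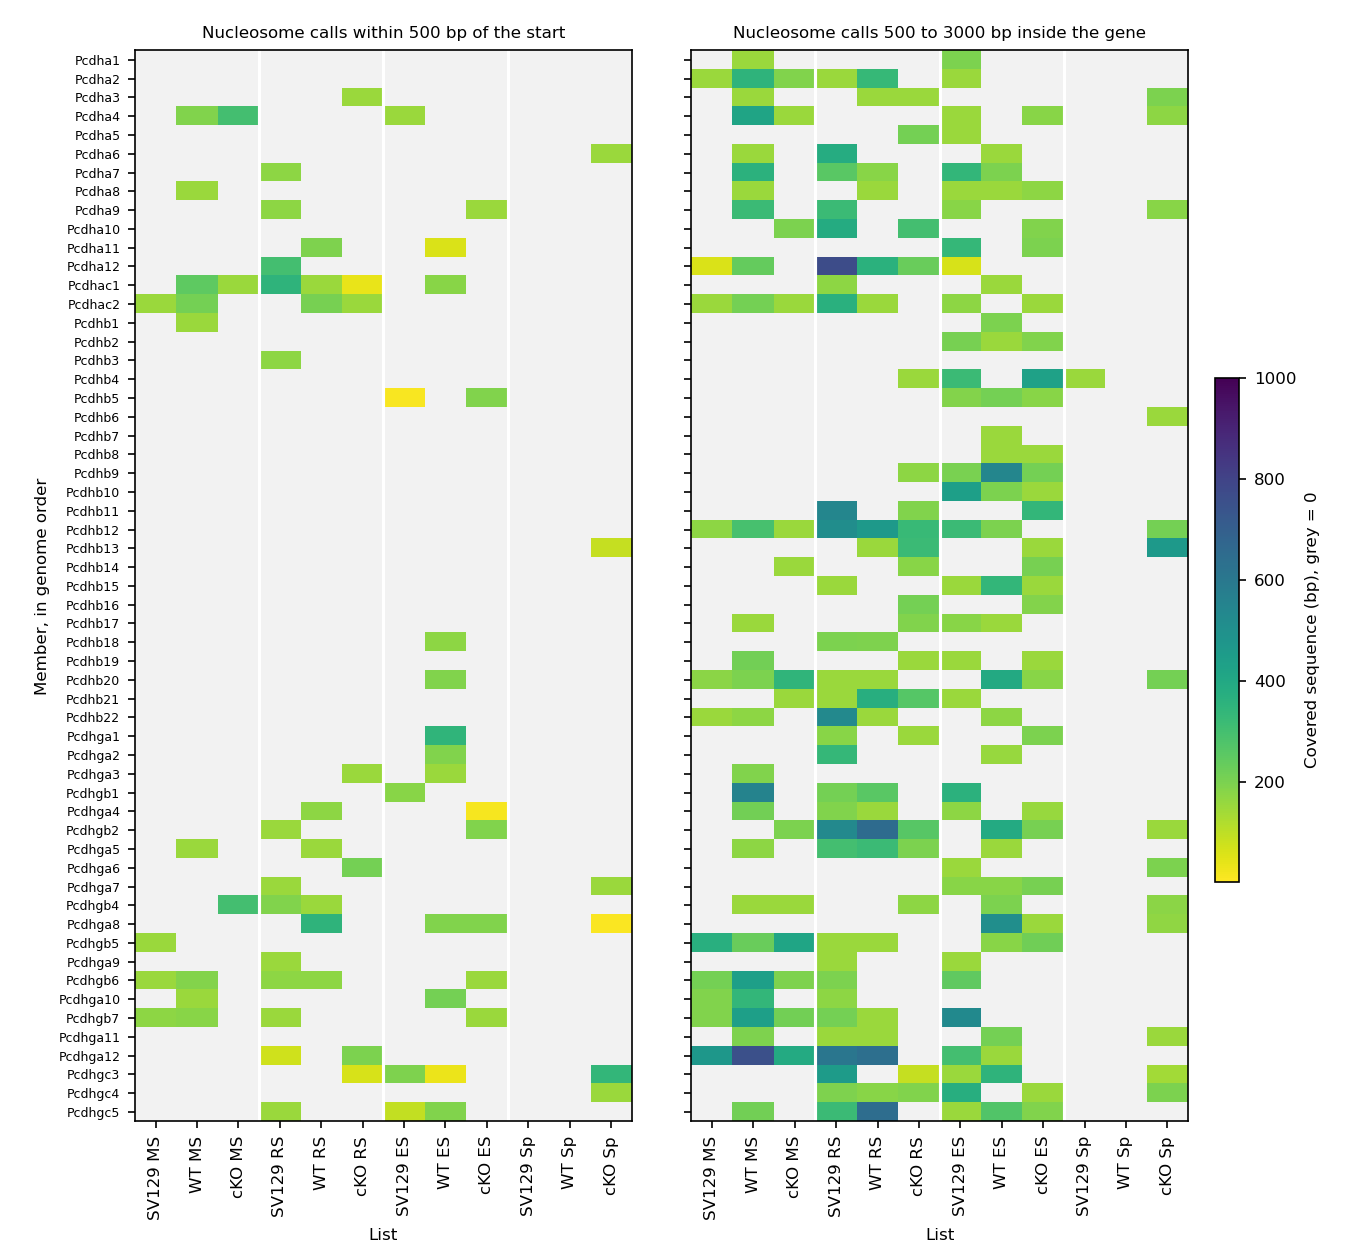
Length of sequence covered by nucleosome calls (colour, bp, grey for 0) for each member in genome order (y axis) and each of 12 lists (x axis), within 500 bp of the start (left) and from 500 to 3000 bp inside the gene (right). Beta members are nearly empty at their starts and fill in at RS and ES inside the genes, Pcdhb12 is covered inside in 9 lists, and the SV129 and WT sperm columns hold 1 member in all.

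The picture changed inside the genes, in the stretch from 500 to 3000 bp past the start that holds most of the large first exon. Here members were called about as often as other genes at MS and more often at RS and ES. This stretch was chosen for description after the values had been seen. At RS 31 of 57 members had a nucleosome call there in SV129 (54.4%, 40.7 to 67.6), 22 in WT (38.6%, 26 to 52.4) and 20 in cKO (35.1%, 22.9 to 48.9), against 27.3%, 23.7% and 18.5% of other genes. In each RS list the lower bound for the members was above the background share. At ES they were 31, 27 and 26, against 34.4%, 31.7% and 31.2%, with the lower bound above the background in all 3 lists as well. At MS they were 11, 27 and 14, against 25.1%, 36.8% and 28.9%, and each interval includes the background. Without the most common score the 20 in cKO at RS became 13 (22.8%, 12.7 to 35.8, against 10.8%). The same filter left 19 in WT at RS (33.3%, 21.4 to 47.1, against 21.4%) and 20 at ES (35.1%, 22.9 to 48.9, against 25.3%). The lower bound for WT thus no longer cleared the background at either stage. In SV129 and cKO it stayed above the background at both.

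Over the 12 lists 56 of 57 members had a nucleosome call in this stretch at least once (98.2%, 90.6 to 100), Pcdhb3 being the exception, against 78.8% of other genes. The median member was called in 4 lists and the median other gene in 2, with medians of 4 for alpha, 3 for beta and 5 for gamma members. Beta members, nearly blank at their starts, were called inside in 7, 6 and 10 of 22 at RS and in 10, 12 and 13 of 22 at ES. At MS the same counts were 3, 5 and 4. The alpha members gave 3, 10 and 4 of 14 at MS and 8, 6 and 4 at RS, and the gamma members 5, 12 and 6 of 21 and 16, 10 and 6.

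Subnucleosome peaks were also found inside the members, in most lists at about the rate of other genes. At MS 10, 12 and 3 members had one in SV129, WT and cKO (13.2%, 15.6% and 6.8% of other genes), and at RS 8, 15 and 1 (8.9%, 15% and 1.33%). The 15 in WT (26.3%, 15.5 to 39.7) were the single count whose interval lay above the background. With peaks under the median score left out they became 7 (12.3%, 5.08 to 23.7, against 8.91%), so this no longer held. The same filter took the MS counts to 5 in WT and 0 in cKO (9.16% and 3.3% of other genes). None was called in an ES list (0.109%, 0.0629% and 0.0572% of other genes) or in sperm (3.49%, 1.01% and 0.394%). In all 25 members had such a peak inside in at least 1 list (43.9%, 30.7 to 57.6, against 22.7% of other genes), 5 alpha, 9 beta and 11 gamma.

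Pcdhb12 stood at the top of both counts, with nucleosome calls inside in 9 lists and subnucleosome peaks in 6. Its open stretch at 37437414 to 37438009, centred 2091 bp past the start and 943 bp before the annotated end, covered 339 bp in SV129, 323 bp in WT and 101 bp in cKO at MS. At RS it covered 423 bp, 588 bp and 139 bp. It was the single site within a member that was in both cKO lists, in each case shorter than in the intact lists. Over the whole inner stretch of Pcdhb12, of which this site is a part, nucleosome calls covered 170, 290 and 150 bp at MS. At RS they covered 510, 460 and 327 bp. How much of the open site itself they covered was not tested.

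Pcdhga12, the last A-type gamma gene, had nucleosome calls inside in 7 lists and peaks in 5. The peaks covered 285 bp in SV129, 451 bp in WT and 228 bp in cKO at MS, and 105 bp, 136 bp and 0 bp at RS. The calls covered 470, 755 and 390 bp at MS, the most of any member in the SV129 and WT lists there, and 607, 635 and 0 bp at RS. Pcdhgb2 was called inside in 7 lists with peaks in 4, and Pcdhb20 in 8 with peaks in 2. These 4 genes were singled out after their values were seen.

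The intervals of members lay farther from the start than those of other genes. Among nucleosome calls centred from 1000 bp before to 3000 bp after a start, 74.2%, 60.4% and 73.8% lay 1500 to 3000 bp inside the members at MS in SV129, WT and cKO, and 64.4%, 68.8% and 75% at RS. For other genes the same share was 5.95%, 7.81% and 8.64% in the MS lists, and in the RS lists 8.17%, 6.94% and 15.4%. Within 500 bp of the start lay 16.1%, 17.9% and 19% of the members' calls at MS, against 75.1%, 69.4% and 68.5% for other genes. Subnucleosome peaks were placed likewise, with 7 of 14 in SV129, 11 of 19 in WT and 4 of 4 in cKO lying 1500 to 3000 bp inside at MS, and 5 of 9, 11 of 22 and 1 of 1 at RS. In other genes 5.54%, 5.71% and 4.54% of peaks at MS and 5.54%, 6.49% and 3.08% at RS lay there.

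**Figure D3:**
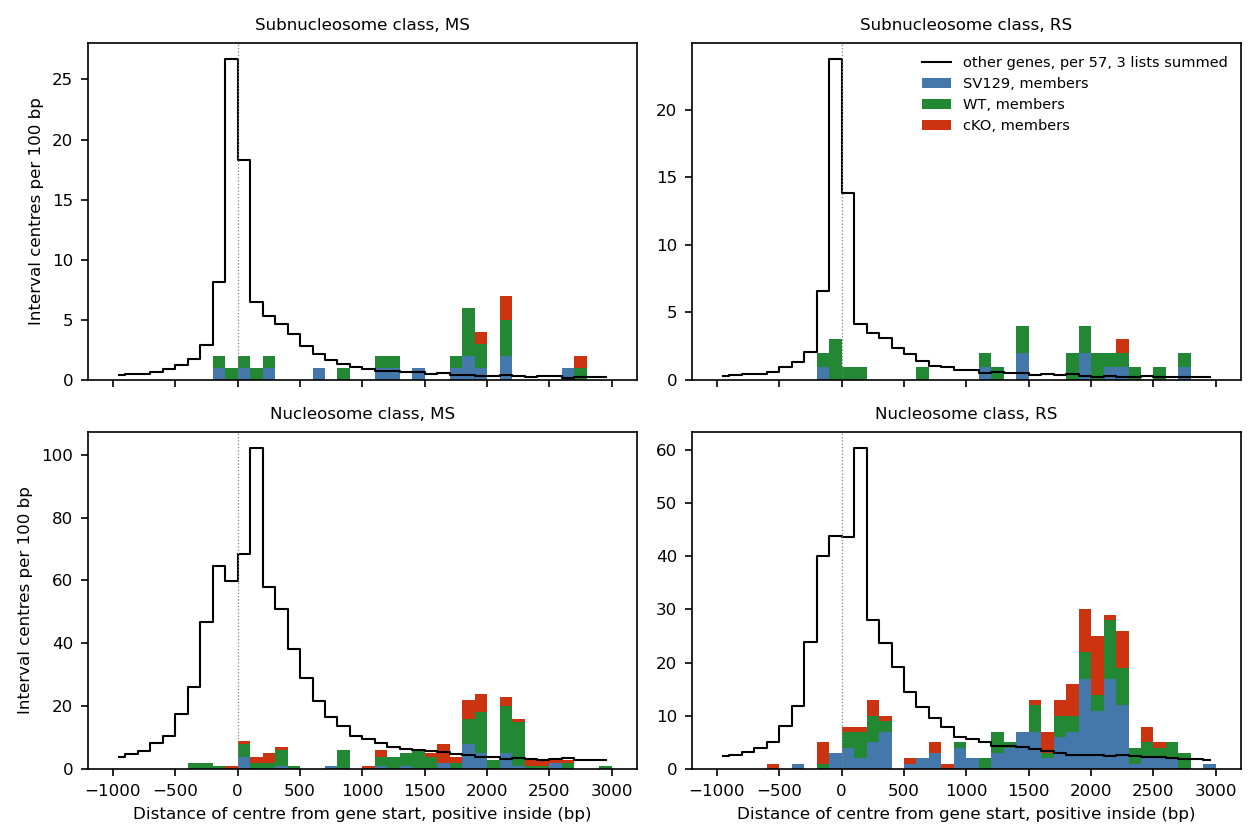
Interval centres per 100 bp (y axis, number) against the distance from the gene start (x axis, bp, positive inside the gene), stacked by background for the 57 members, with a line for other genes scaled to 57 genes and summed over the same 3 lists. Other genes peak at the start in all 4 panels, while members have few centres there and more near 2000 bp inside.

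This profile has 2 parts, which the share of sequence separates. The stretches 500 to 3000 bp past member starts, without sequence within 500 bp of any start, make up 15.4% of the cluster, and those of other genes 1.55% of autosomal sequence. Nucleosome calls and peaks at MS and RS were 3.06 to 4.01 times as frequent in the members' stretches as this share gives, and 2.3 to 4.83 times in those of other genes. On this measure the members lay below other genes in 4 of 12 lists and above them in the rest: they were below for nucleosome calls at MS in SV129 (3.67 against 4.83) and WT (3.85 against 4.62) and for peaks at MS in WT (3.64 against 3.74) and cKO (3.71 against 3.95). At the starts, where the cluster has 6.25% of its sequence and other autosomal sequence 0.665%, the fold was 0 to 3.2 in the cluster and 8.31 to 68.1 elsewhere, and here the members lay below other genes in all 12 of these lists.

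The union of the 12 subnucleosome lists over the cluster gave 55 separate sites, of which 9 lay at a start, 31 from 500 to 3000 bp past the start of a member and 15 elsewhere. Of the 31, all 8 in beta genes other than Pcdhb1 were centred 1826 to 2135 bp past the start, with a median of 1990 bp. They were in Pcdhb3, Pcdhb4, Pcdhb5, Pcdhb12, Pcdhb15, Pcdhb17, Pcdhb19 and Pcdhb20. Annotated beta genes are 2.34 to 5.27 kb long with a median of 3.42 kb, and these sites were 912 to 2589 bp before the annotated end. The 8 sites in B-type gamma genes fell at 1152 to 2007 bp, and 7 of them, like all 8 beta sites, lay between 1700 and 2200 bp, a range set after the sites were seen. All 6 B-type genes had one. Alpha genes had 5 sites at 1107 to 2294 bp and none in that range, and A-type gamma genes had 5 at 1277 to 2681 bp with 1 in it. The sites of the C-type genes, 4 in all, ranged from 695 to 2523 bp with 1 in it. The similar positions belong to similar genes, so the sites are not independent of each other.

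Of the 55 sites 33 were in 1 list and 6 in all 4 intact lists of MS and RS. The gamma group held 25, the alpha group 12, the beta group 10, the beta to gamma gap 5, the alpha to beta gap 2, and 1 lay past the end. The most constant lay outside the members. A peak at 37643990 to 37644403 lay at the higher-coordinate end of Taf7, whose strand was not available here. It covered 398, 301 and 216 bp at MS in SV129, WT and cKO, 279, 360 and 0 bp at RS, and 162, 229 and 0 bp in sperm. It was the single subnucleosome peak of the cluster's span in sperm. Nucleosome calls lay within 500 bp of 11 of 17 cluster peaks in SV129, 18 of 25 in WT and 5 of 7 in cKO at MS, which is 64.7%, 72% and 71.4% beside 69.1%, 72.6% and 74% on the autosomes.

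Both gaps held a further site listed in 5 lists. In the alpha to beta gap it lay at 37218168 to 37218485, 29.3 kb past the alpha genes, with 209, 309 and 218 bp at MS and 266, 317 and 0 bp at RS. A long-range enhancer of the alpha genes that binds CTCF is known downstream of their constant exons. Whether the site is that enhancer was not tested. In the beta to gamma gap, at 37618692 to 37618975, a peak covered 198, 274 and 99 bp at MS and 169, 284 and 0 bp at RS. The sixth was at 37768162 to 37768359, 2681 bp into Pcdhga12, with 198, 138 and 82 bp at MS and 105, 136 and 0 bp at RS. With Pcdhac1 and Pcdhb12 these make up the 6 sites of all 4 intact lists.

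**Figure D4:**
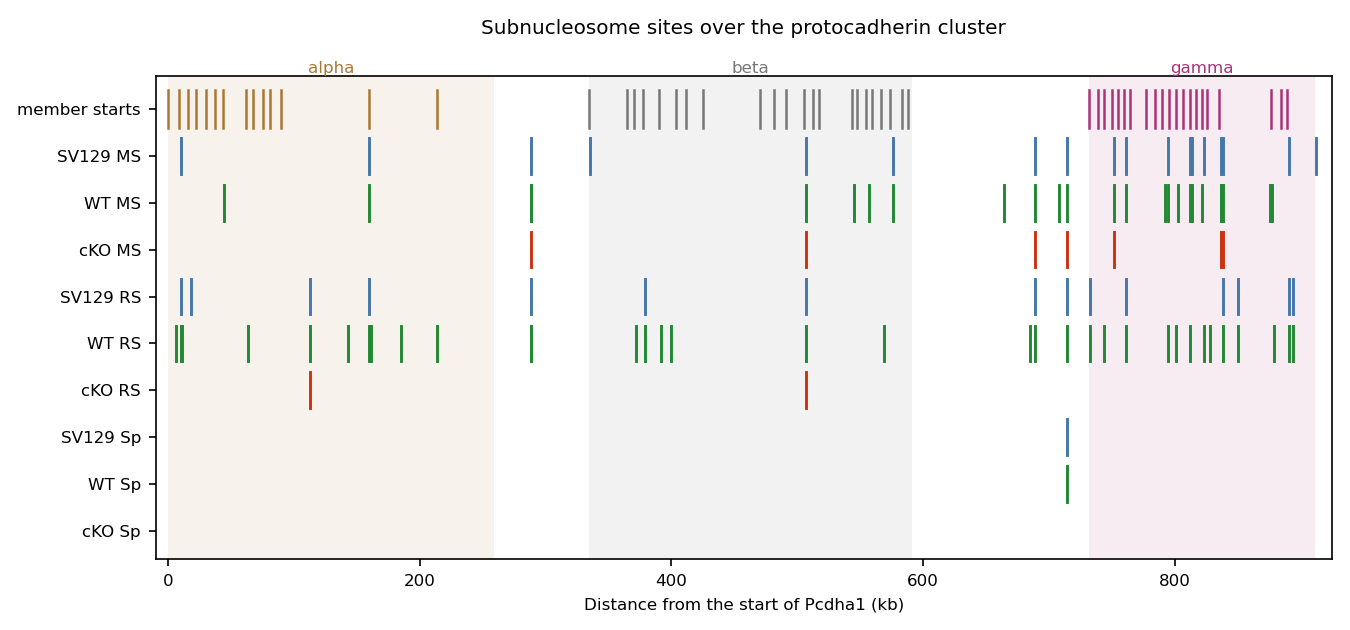
Positions of subnucleosome sites (vertical bars) along the cluster (x axis, kb from the start of Pcdha1) in each list of MS, RS and sperm (y axis), with member starts in the top row and the alpha, beta and gamma groups shaded. Bars gather in the gamma group, the cKO rows hold 8 sites in all, and sperm lists hold 1.

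Between meiosis and the round spermatid stage the intact lists exchanged many sites. In SV129, 9 sites were in both stages, 9 at MS alone and 6 at RS alone, and in WT 8, 17 and 26. The WT peaks at MS that overlapped one at RS were 8 of 25 in the cluster (32%, 14.9 to 53.5) against 68.7% on chromosomes 1 to 19. In SV129 they were 9 of 17 (52.9%, 27.8 to 77) against 51.9%, so WT was below the autosomal share and SV129 was not, a difference between backgrounds that was not tested. For nucleosome calls SV129 lay above the autosomal share, with 36 of 46 calls at MS overlapping one at RS (78.3%, 63.6 to 89.1, against 41.5%), and the interval for WT included it, with 47 of 147 (32%, 24.5 to 40.2, against 31.1%). In both classes the share was thus higher in SV129 than in WT.

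Sites listed at 1 stage by both intact backgrounds numbered 5 for MS and 5 for RS. At MS they included the peak 1850 bp into Pcdhgb1, with 309 and 341 bp in SV129 and WT, that in Pcdhgb6, with 368 and 249 bp, and that in Pcdhb20, with 211 and 200 bp. At RS they included the peak 1987 bp into Pcdhb4, with 423 and 484 bp, and that 1405 bp into Pcdhga1, with 133 and 185 bp. A WT list often held sites that SV129 did not: 12 sites at MS and 20 at RS were in WT alone of the 3 lists, and 6 and 1 in SV129 alone. WT peaks that overlapped an SV129 peak were 12 of 25 at MS (48%, 27.8 to 68.7, against 71% on the autosomes). At RS they were 14 of 34 (41.2%, 24.6 to 59.3, against 45%), close to the autosomal share. SV129 peaks that overlapped a WT peak were 12 of 17 at MS (70.6%, 44 to 89.7, against 80.1%) and 14 of 15 at RS (93.3%, 68.1 to 99.8, against 90%).

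Nucleosome calls were spread unevenly over the cluster. In the variable part of the gamma group, 107 kb from Pcdhga1 to Pcdhga12, they were denser than on chromosomes 1 to 19 in every list of MS and RS. At MS the ratio was 2.73 in SV129 (1.73 to 4.1), 4.7 in WT (3.63 to 5.99) and 1.94 in cKO (1.27 to 2.84), and at RS 6.25 (4.79 to 8.01), 3.83 (2.76 to 5.18) and 2.57 (1.63 to 3.86). In the beta group it was 0.247 (0.0803 to 0.577), 0.422 (0.231 to 0.708) and 0.218 (0.0875 to 0.448) at MS, and 1.47 (1.02 to 2.04), 0.873 (0.554 to 1.31) and 1.54 (1.06 to 2.16) at RS. The beta genes were thus below the autosomal density at MS in each background. At RS the interval included 1 in WT and lay just above 1 in SV129 and cKO. Overlapping calls were counted singly in these intervals, so bounds this close to 1 do not separate the backgrounds. The variable alpha genes stood at 0.136, 2.16 and 1.03 at MS and 3.94, 1.26 and 1.29 at RS, so that SV129 and WT were in opposite order at the 2 stages.

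**Figure D5:**
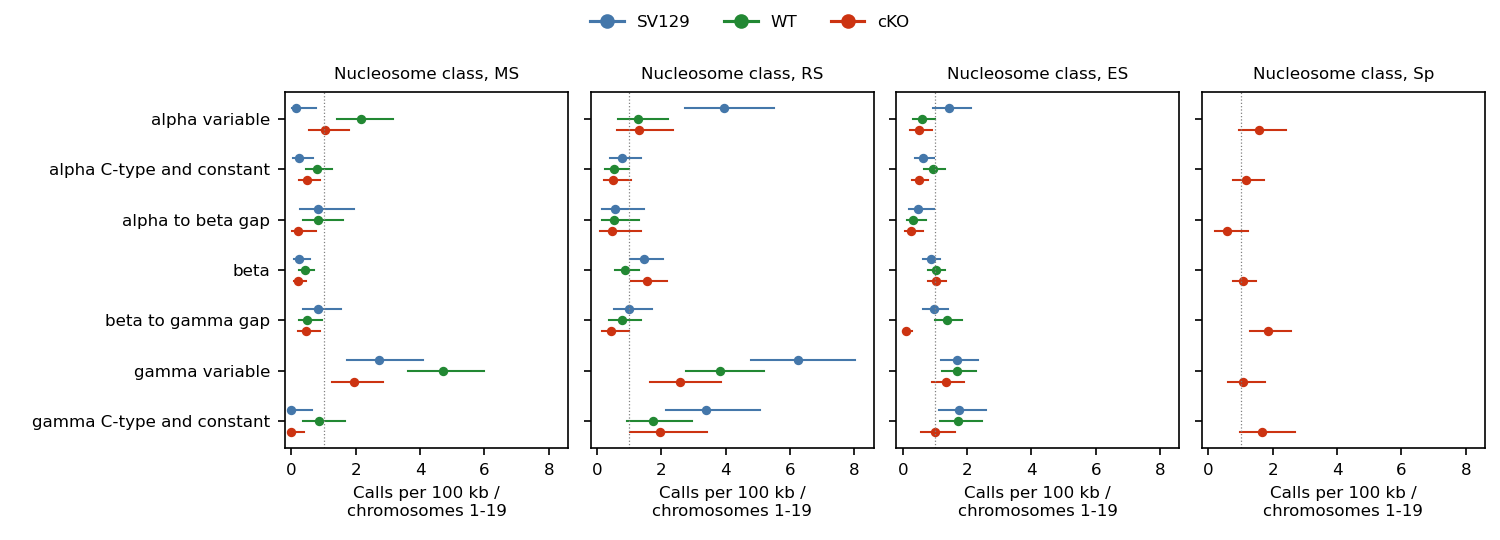
Density of nucleosome calls relative to chromosomes 1 to 19 (x axis, ratio with exact Poisson 95% interval) in each part of the cluster (y axis) at MS, RS, ES and Sp, by background. A ratio of 1 is the autosomal density, the SV129 and WT sperm lists are not drawn because they hold 1 and 2 calls, and the gamma variable row lies above 1 at MS and RS in all backgrounds.

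Over the whole cluster there were 46, 147 and 65 nucleosome calls at MS in SV129, WT and cKO, 183, 114 and 93 at RS, 182, 237 and 139 at ES, and 1, 2 and 160 in sperm. Relative to chromosomes 1 to 19 the density was 0.64, 1.25 and 0.568 at MS, 2.16, 1.22 and 1.22 at RS, 1.03, 1.1 and 0.702 at ES. The SV129 list thus went from below the autosomal density at MS to above it at RS, which WT did not. At ES the calls of different backgrounds rarely coincided, 4.4% to 10.1% of cluster calls overlapping one of another background, close to the 6.62% to 9.36% of the autosomes.

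The cKO and WT lists differ in Gcn5, but read depth, stage and cell make-up cannot be told apart from its loss in these lists. Subnucleosome peaks over the cluster numbered 17, 25 and 7 at MS in SV129, WT and cKO, and 15, 34 and 2 at RS. The ratio of cKO to WT was 0.28 at MS, beside 0.448 on chromosomes 1 to 19, and 0.0588 at RS, beside 0.072. SV129 had 0.68 times as many as WT at MS and 0.441 times at RS (0.92 and 0.516 on the autosomes). All 7 cKO peaks at MS and both at RS overlapped a WT peak, as did 96.6% and 99.8% on the autosomes. None of the 55 sites was in a cKO list alone. In the other direction 7 of 25 WT peaks at MS overlapped a cKO peak (28%, 12.1 to 49.4, against 42% on the autosomes). At RS 2 of 34 did (5.88%, 0.72 to 19.7, against 7.04%). Both intervals include the autosomal share. Of 12 sites in both intact MS lists 6 were also in cKO, and of 14 in both intact RS lists 2 were, those in Pcdhb12 and at 37042676 to 37043034 between Pcdha12 and Pcdhac1.

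At the starts no member had a subnucleosome peak in cKO. Pcdhac1, Pcdhga8 and Pcdhgb6 were listed at MS by both intact backgrounds and not by cKO, and Pcdhac1 at RS, as were 10.2% and 27.6% of other genes. Of the other genes called in WT, 30% at MS and 74.7% at RS were not called in cKO. Inside the genes 3 members at MS had a peak in both WT and cKO, 9 in WT alone and 0 in cKO alone, and at RS 1, 14 and 0. So 75% and 93.3% of the members called in WT were not called in cKO, against 57.1% and 91.1% of the other genes called in WT, which is 1558 of 2730 and 2389 of 2622 genes. In cKO alone were 17 other genes at MS and 0 at RS. The members' share at RS was thus close to that of other genes. At that stage the cKO list also lacked a peak at the 8 spermatid markers, and 11.2% of all genes had one at an end. The part of stage or cell make-up in these losses was not tested. The counts for SV129 against WT were 6 in both, 6 in WT alone and 4 in SV129 alone at MS, and 7, 8 and 1 at RS. Of the members called in WT 50% and 53.3% were thus not called in SV129, against 25.3% and 45.8% of other genes.

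Nucleosome calls showed exchange in both directions. At the start Pcdhac2, Pcdhgb6 and Pcdhgb7 were called at MS in both intact backgrounds and not in cKO, and at RS Pcdhgb4 and Pcdhgb6, as were 5.5% and 18.1% of other genes. Pcdhgb4 was called in cKO alone at MS with 300 bp, and Pcdha3, Pcdhga3, Pcdhga6 and Pcdhgc3 at RS with 150, 150, 210 and 62 bp, as were 3.62% and 3.39% of other genes. Inside the genes 10 members were called at MS in WT and cKO, 17 in WT alone and 4 in cKO alone, and at RS 8, 14 and 12. Of the members called in WT 63% at MS and 63.6% at RS were not called in cKO, against 41.2% and 62.1% of other genes, so that at RS the shares were close. Of those called in cKO 28.6% and 60% were not called in WT, against 25.1% and 51.5%. SV129 against WT gave 11 in both, 16 in WT alone and 0 in SV129 alone at MS, and 19, 3 and 12 at RS. Here 59.3% and 13.6% of the members called in WT were not called in SV129, against 40.6% and 32.6% of other genes. The cluster's ratio of cKO to WT calls at MS, 0.442, was below the autosomal 0.97, but that of SV129 to WT, 0.313, was also below its autosomal 0.61. At RS the cKO to WT ratio was 0.816, beside 0.814 on the autosomes, and 0.694 with overlapping calls merged. That of SV129 to WT was 1.61, beside 0.905, and that of cKO to SV129 0.508, beside 0.9. The cKO list at RS was thus near the autosomal ratio against WT and below it against SV129.

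In elongating spermatids the cluster's ratio of cKO to WT was 0.586 against 0.919 on the autosomes, and that of SV129 to WT 0.768 against 0.819. The gap between beta and gamma took part in this: it had 26 calls in SV129, 46 in WT and 3 in cKO, which is 0.957 (0.625 to 1.4), 1.39 (1.01 to 1.85) and 0.0984 (0.0203 to 0.288) of the autosomal density. The beta group itself was at 0.866, 1.02 and 1.02. At the starts 5 members were called in SV129, namely Pcdha4, Pcdhb5, Pcdhgb1, Pcdhgc3 and Pcdhgc5, with 150, 10, 177, 193 and 93 bp. This gap was singled out after its values were seen.

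Mature sperm of intact mice showed almost no call over the cluster. Their nucleosome lists were short throughout, with 13615 calls in SV129 and 8628 in WT, beside 347951 in cKO. Over the cluster there was 1 nucleosome call in SV129, inside Pcdhb4, and 2 in WT. Neither of the 2 lay within 500 bp of a member's start or 500 to 3000 bp past it. Counts this low do not show whether the cluster had fewer calls than its share. The cKO sperm list had 160, or 1.27 times the autosomal density (1.08 to 1.48). This was 80 times as many as WT, beside 48.2 times on chromosomes 1 to 19, but the factor of 80 rests on 2 WT calls. Most of the cKO calls lay neither within 500 bp of a member's start nor 500 to 3000 bp past it. At the start 6 members were called (10.5%, against 29.8% of other genes), namely Pcdha6, Pcdhb13, Pcdhga7, Pcdhga8, Pcdhgc3 and Pcdhgc4. Pcdhgc3 had the most, 339 bp, and Pcdhga8 the least, 5 bp. Inside the genes 14 members were called (24.6%, 14.1 to 37.8) against 21.2% of other genes, and 1 and 0 in SV129 and WT (1.42% and 1.14%).

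The calls of cKO sperm rarely coincided with those of earlier stages. Of the 160, 10 overlapped a cKO call at RS (6.25%, 3.04 to 11.2, against 3.9% on the autosomes), 5 one at MS (3.12%, 1.02 to 7.14, against 7.07%) and 5 one at ES (3.12%, 1.02 to 7.14, against 6.23%). All 3 intervals include the autosomal share. Markers of the epididymis, from which sperm were taken, had nucleosome calls at an end in 0 of 6 genes in each sperm list, and Sertoli and Leydig markers in 0, 0 and 1 of 8. Meiotic markers had them in 0, 1 and 3 of 8 and spermatid markers in 0, 0 and 1 of 8. Blood markers had them in 0, 0 and 1 of 6 and neural markers in 0, 0 and 1 of 5. Of all genes 6.79%, 4.62% and 35.2% were called by this rule. The epididymal genes had a subnucleosome peak in 1, 0 and 0 of 6, and the spermatid genes in 1, 1 and 0 of 8. The part of other cells in the sperm lists was not tested.

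Among genes known to regulate the cluster, many had peaks at their own ends in intact mice and fewer in cKO. Of 22 such genes, which encode CTCF, cohesin and its loader, DNA methyltransferases and silencing factors, 13, 13 and 5 had a subnucleosome peak at an end at MS in SV129, WT and cKO, and 11, 14 and 2 at RS, against the background of all genes given above for either end. At MS 8 of the 13 called in both intact lists were not called in cKO, against 24.4% of all genes called in both intact lists (10.5% of all genes): Ctcf, Dnmt3b, Ehmt1, Nipbl, Rad21l, Smc1b, Smchd1 and Stag2. Ctcf, the looping factor of the cluster's promoters, had 323 bp in SV129 and 403 bp in WT at MS, and 430 bp and 598 bp at RS. Smchd1, a repressor that acts on the clustered protocadherins, had 433 and 527 bp at MS and 282 and 640 bp at RS. Dnmt3b, the methyltransferase linked to methylation of their promoters, had 385 and 491 bp at MS and 232 and 304 bp at RS.

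The other 5 called at MS by both intact lists had a peak in cKO too, namely Ctcfl, Setdb1, Smc1a, Smc3 and Wiz. Smc3, a core cohesin subunit, had 431, 601 and 378 bp at MS and 488, 643 and 335 bp at RS, and Smc1a, its partner, 555, 591 and 420 bp and 287, 343 and 78 bp. These were the 2 regulators with a peak in cKO at RS, and 9 of 11 were listed there by both intact backgrounds alone, against 71.5% of all genes called in both (27.9% of all genes): Ctcf, Ctcfl, Dnmt3b, Ehmt1, Rad21l, Rest, Setdb1, Smchd1 and Wiz. Ctcfl, the paralog of CTCF made in male germ cells, had 226, 549 and 84 bp at MS and 334, 767 and 0 bp at RS. Nucleosome calls at the ends of regulators differed less at MS. There 13, 14 and 13 of 22 were called, 12 of them in all 3 lists, against 49.7%, 57.3% and 51.1% of all genes. Rest was called in cKO alone, as were 4.45% of all genes. Ehmt2 was called in both intact lists alone, as were 5.64%, through 37 bp in SV129 and 5 bp in WT. At RS Nipbl, Smc1a and Smc1b were called in both intact lists and not in cKO, as were 17.7% of all genes. Dnmt3a and Stag1 were called in cKO alone, as were 4.75%.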

How the data were processed

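The 24 interval lists are those the authors deposited, 1 per group and class. Per the submitters' processing notes the build was GRCm38 (mm10) and the tools named include STAR 2.5.2a and MACS2 2.1.0.20140616, with no role given. The split of fragments by class, the calling and the pooling of replicates are not given in the sources used here. The deposited score column has no stated scale, is 0 throughout in the SV129 subnucleosome lists and was used only to filter in an alternative. Per the labels' protocols, reactions held 100000 (MS, Sp) or 200000 (RS, ES) cells. The MS, RS and ES fractions were of at least 85% purity, and no purity is given for Sp.

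Gene positions came from RefSeq (GRCm38.p6), which has no strand or exons. Members were taken as transcribed toward higher coordinates, as is known for the cluster, and 17492 other genes had a strand in a promoter table. A gene was called when an interval overlapped (1 bp or more) the 500 bp on either side of its start, of either end, or the stretch 500 to 3000 bp inside. Densities count interval centres. Sites are unions of overlapping peaks. The interval code was tested on simulated intervals. Python 3.11.15, numpy 2.4.6, scipy 1.17.1 and matplotlib 3.10.9 were used.

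Members and gene lists were chosen with earlier results of these data known. The rule for named genes took the C-type genes and Pcdhb1, the 10 members with most covered sequence at the start per class, members that separate cKO from both intact backgrounds at the start at MS or RS, members called at the start in an ES or sperm list with 5 or fewer, and regulators that separate cKO likewise. Members named for peaks inside the gene, the single sites, the inner stretch and the gaps were chosen after values were seen. Sequences are not printed, and 1 gene of the regulator list is not reported here.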

Additional observations from a re-analysis of the deposited data

How the results depend on the processing

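No paired analysis was possible because the lists hold no values per library, and for the same reason no replicate could be left out. Results are counts of members called at an end or inside the gene, and densities, per list. Asking for 50% of the interval inside, or narrowing the inner stretch to 500 to 2500 bp, moved none of the 24 inner counts by over 1.5 times, and merging overlapping calls moved none of the 24 densities out of its counting interval. At the ends, windows of 250 bp gave 2 (from 6), 8 (from 30), 5 (from 10) for nucleosome calls at ES in SV129, WT and cKO and 3 (from 22) for peaks at MS in SV129. Windows of 1000 bp gave 23 (from 4), 29 (from 9) and 6 (from 3) for nucleosome calls at MS, 11 (from 7) in cKO at RS, and 15 (from 6) in SV129 and 30 (from 10) in cKO at ES. For peaks they gave 1 (from 0) in cKO at MS, and 2 (from 1), 24 (from 6) and 1 (from 0) at RS. With 50% of the interval inside, WT nucleosome calls at ES gave 13 (from 30). At the start alone the counts were 11 (from 30) there, 6 (from 37) in cKO sperm and 3 (from 22) for peaks in SV129 at MS. The score filter, which kept peaks of at least the median score or dropped the most common nucleosome score, moved nucleosome counts at ends to 2 (from 4) in SV129 at MS, 1 (from 7) in cKO at RS, 13 (from 30) in WT and 5 (from 10) in cKO at ES and 15 (from 37) in cKO sperm, and inside to 13 (from 20) in cKO at RS and 8 (from 14) in cKO sperm. Peaks at ends moved to 1 (from 5) in WT at MS and 2 (from 6) at RS, and inside to 5 (from 12) in WT and 0 (from 3) in cKO at MS and 7 (from 15) in WT at RS. It moved the density relative to the autosomes to 0.863 (from 1.03) and 0.574 (from 0.702) for nucleosome calls in SV129 and cKO at ES, and for peaks to 0.344 (from 1.21) in cKO at MS and 0 (from 0.913) in WT sperm. The causes were not tested. The inner stretch and its alternatives were added after the data were seen. Wider windows reach into neighbouring or shared gene parts by construction. Depth is unknown, so a missing call is not evidence of closed chromatin.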
